A study of Mus musculus with 4 samples.

Results

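Certain chromatin sites at the ends of protein-coding genes were called as accessible in mouse intestinal organoids after 72 h of BMP2 and were not called before it, even at a lenient threshold. They were chosen by peak calls alone, as the peaks called at a p-value threshold of 1e-10 (strict peaks) in the 72 h library that no peak called at 1e-05 in the 0 h library overlapped by even 1 bp, on chromosomes 1 to 19 and X, and whose centre lay 1 kb or less from the start or the far end of a coding gene in RefSeq. The rule found 265 peaks, 2.52% of the 10501 strict 72 h peaks at gene ends, out of 25040 strict peaks in the 72 h library and 4513 found only at 72 h on these chromosomes. All 265 were in the list of 4534 regions that the authors deposited as enriched at 72 h, a list close in size to the 4513. How that list was made is not given, so this is no independent support. Merging overlapping peaks left 260 sites, and the peaks lay nearest to 258 genes. Their presence at 72 h and absence at 0 h are what the rule selected, and are a description here.

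A gene's start carries its promoter, where general transcription factors and RNA polymerase II assemble, and active promoters are usually depleted of nucleosomes. Mammalian promoters fall broadly into those inside CpG islands, typical of genes used in most cells and commonly open in many cell types, and CpG-poor ones, more often with a TATA box and more often tied to genes of particular tissues. In the small intestine, absorptive enterocytes leave the crypt, where Wnt signals are strong, and mature along the villus, where bone morphogenetic protein (BMP) signalling through SMAD transcription factors is stronger.

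The assay for transposase-accessible chromatin (ATAC-seq) inserts sequencing adapters into open DNA with the Tn5 transposase. It was applied to C57BL/6J mouse organoids, primary epithelial cultures derived from proximal small-intestinal crypts, at 30000 cells per library. The 0 h organoids stayed in a medium that held EGF, R-spondin, the BMP antagonist Noggin, valproic acid, which blocks histone deacetylases, and CHIR99021, which blocks GSK3 and so turns on the Wnt pathway. The 72 h organoids were kept without CHIR99021, valproic acid and Noggin, in EGF and R-spondin, with 100 ng/mL recombinant BMP2 for 72 h, so that the effects of BMP2 and of the change of medium cannot be told apart. Each time point is 1 library, with no replicate, and the peak lists carry no score or read count, so the depth is unknown, no p-value is given and no fold can be computed. The 72 h library had more peaks in all, 41343 at 1e-05 and 25040 at 1e-10, against 35857 and 19910 at 0 h. The intervals below are exact Clopper-Pearson 95% intervals that cover counting error only. Libraries at 24 h and 48 h were not analysed here.

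Over all 21631 coding genes, 11788 had a 1e-05 peak within 1 kb of a gene end at 0 h and 11377 at 72 h. Of the epithelial markers examined, 11 of 12 had such a peak at 0 h and 12 of 12 at 72 h. The gene without one at 0 h was Krt20, itself among the genes described here. Of the fibroblast and muscle markers 2 of 8 had such a peak at each time, of the immune markers 2 of 6 at each time, and of the endothelial markers 1 of 5 at 0 h and none of 5 at 72 h. Ptprc, Pecam1, Cdh5 and Col3a1 had none in either library, whereas Col1a1, Itgam and Spi1 had one in both. Vim and Kdr had one only at 0 h, and Myh11 only at 72 h. Of stem cell markers, 5 of 6 had such a peak at both times, and of enterocyte markers 5 of 12 at 0 h and 9 of 12 at 72 h. Goblet cell markers had 2 of 9 at 0 h and 4 of 9 at 72 h, enteroendocrine markers 2 and 3 of 10, Paneth cell markers 1 of 6 and tuft cell markers 1 of 7 at each time. The genes that the rule chose are among these counts, with Alpi, Fabp2 and Sis among the enterocyte markers, Agr2 among the goblet markers and Gip and Sct among the enteroendocrine ones, so the differences between the times in these 3 sets support nothing.

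The promoters below are the DNA that the 72 h peaks lay on at genes with well-known roles in the gut, and Sdf4 is added, after its values were seen, as the promoter with the highest CpG ratio of all 73 whose start lay inside such a peak. Each is 300 bases of RefSeq GRCm38.p6 (the assembly that mm10 denotes), from 250 before the start to 50 after it, on the gene's strand. Alpi encodes intestinal alkaline phosphatase (chr1:87101557-87101856, minus strand), Sis sucrase-isomaltase (chr3:72967814-72968113, minus), Tm4sf4 a tetraspan membrane protein (chr3:57425160-57425459, plus), Krt20 a keratin of mature enterocytes (chr11:99438104-99438403, minus), Apoc2 an activator of lipoprotein lipase (chr7:19677892-19678191, minus), Npc1l1 the sterol transporter that takes up dietary cholesterol (chr11:6230196-6230495, minus) and Sdf4 a calcium-binding protein of the Golgi (chr4:155992903-155993202, plus). Capitals mark letters that match TATAAA, the Hnf4 words CAAAGTCCA or CAAAGTTCA, the Gata words AGATAA or TGATAA, the Cdx words TTTATGG or TTTATTG, the Hnf1 word GTTAAT, the GC box GGGCGG, the AP-1 word TGANTCA or the Smad words GGCGCC or GTCTAGAC, on either strand. A match is a description of the letters and not a measured binding site.
Alpi: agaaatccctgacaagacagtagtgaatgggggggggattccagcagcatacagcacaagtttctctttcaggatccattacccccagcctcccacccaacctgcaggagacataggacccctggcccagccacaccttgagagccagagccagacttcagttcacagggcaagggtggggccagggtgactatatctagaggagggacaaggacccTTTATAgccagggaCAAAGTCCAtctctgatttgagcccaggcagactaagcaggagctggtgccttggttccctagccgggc
Sis: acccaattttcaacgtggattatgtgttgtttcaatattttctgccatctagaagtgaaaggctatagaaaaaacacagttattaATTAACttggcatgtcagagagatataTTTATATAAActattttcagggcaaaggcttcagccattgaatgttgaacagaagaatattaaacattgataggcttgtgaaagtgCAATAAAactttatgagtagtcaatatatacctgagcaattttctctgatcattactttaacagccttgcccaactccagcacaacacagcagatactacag
Tm4sf4: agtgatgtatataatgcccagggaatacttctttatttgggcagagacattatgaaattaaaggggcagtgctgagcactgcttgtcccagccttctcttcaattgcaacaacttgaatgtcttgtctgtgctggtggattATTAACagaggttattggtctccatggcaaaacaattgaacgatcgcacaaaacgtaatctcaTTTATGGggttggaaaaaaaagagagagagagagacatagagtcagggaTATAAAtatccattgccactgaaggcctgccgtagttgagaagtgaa
Krt20: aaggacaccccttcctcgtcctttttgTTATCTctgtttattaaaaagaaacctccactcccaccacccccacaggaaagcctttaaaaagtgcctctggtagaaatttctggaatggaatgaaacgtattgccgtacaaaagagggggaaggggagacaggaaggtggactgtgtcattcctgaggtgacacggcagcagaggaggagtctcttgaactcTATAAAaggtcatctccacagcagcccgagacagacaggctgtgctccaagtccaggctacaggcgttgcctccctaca
Apoc2: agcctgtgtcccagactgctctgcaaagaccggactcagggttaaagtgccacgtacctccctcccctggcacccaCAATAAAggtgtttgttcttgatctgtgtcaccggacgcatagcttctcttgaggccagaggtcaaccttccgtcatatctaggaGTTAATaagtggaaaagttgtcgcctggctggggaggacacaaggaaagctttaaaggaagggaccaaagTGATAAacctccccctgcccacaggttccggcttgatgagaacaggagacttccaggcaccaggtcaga
Npc1l1: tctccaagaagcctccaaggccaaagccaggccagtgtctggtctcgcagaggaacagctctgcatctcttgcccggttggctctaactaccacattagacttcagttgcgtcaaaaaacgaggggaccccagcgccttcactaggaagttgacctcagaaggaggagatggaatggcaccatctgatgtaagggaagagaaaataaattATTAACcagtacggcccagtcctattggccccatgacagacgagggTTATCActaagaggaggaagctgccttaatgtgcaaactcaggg
Sdf4: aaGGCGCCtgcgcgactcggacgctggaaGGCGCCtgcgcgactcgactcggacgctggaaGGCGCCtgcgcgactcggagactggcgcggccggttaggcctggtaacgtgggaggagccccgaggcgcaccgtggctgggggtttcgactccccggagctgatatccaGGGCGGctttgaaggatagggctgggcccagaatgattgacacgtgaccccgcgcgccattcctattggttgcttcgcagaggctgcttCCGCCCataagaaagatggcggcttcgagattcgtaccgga

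In the Alpi promoter the Hnf4 word CAAAGTCCA began 19 bases before the start and a TATAAA, read on the opposite strand, 33 bases before it. Krt20 held TATAAA on its own strand 29 bases before the start. Sis held the Cdx word on the opposite strand 52 bases before the start, and both TATAAA matches farther upstream, at 134 and 138 bases. Npc1l1 held an Hnf1 word 40 bases before the start, on the opposite strand. Sdf4, by contrast, held 3 copies of GGCGCC and 2 GC boxes and none of the TATA, Hnf4, Gata, Cdx or Hnf1 words.

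The 72 h-only peaks lay more often at the far end of a gene, and less often at its start, than peaks present in both libraries. The gene's strand, which tells start from end, was known from the RefSeq promoter table for 215 of the 265 peaks. Of these, 149 lay at the start (69.3%, 62.7 to 75.4) and 66 at the other end (30.7%, 24.6 to 37.3). Among the 267 strict peaks at gene ends found only at 0 h, 91.1% of those with a strand lay at the start (86.3 to 94.6), and among 9724 peaks strict in both libraries 97.7% (97.4 to 98.1). For 512 peaks strict at 72 h and only weakly called at 0 h (1e-05 but not 1e-10), the share was 82.0% (77.9 to 85.7). The intervals of the 4 sets did not overlap. Of the 66 peaks at other ends, 34 were centred inside the gene and 32 beyond it, and 2 covered an annotated start in the promoter table, coding or not.

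At starts, the 72 h-only peaks were less tightly centred than the shared strict peaks, while their interval overlapped that of the 0 h-only peaks. Of the 149 peaks, 79 had their centre within 300 bp of the start (53.0%, 44.7 to 61.2), against 66.3% (59.0 to 73.1) of the 0 h-only and 81.4% (80.6 to 82.3) of the strict peaks found in both. The centre lay upstream of the start for 57.0% (48.7 to 65.1), beside 45.1% (37.8 to 52.6) at 0 h only, intervals that overlap. The plot of centres around starts shows both features.

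**Figure D1:**
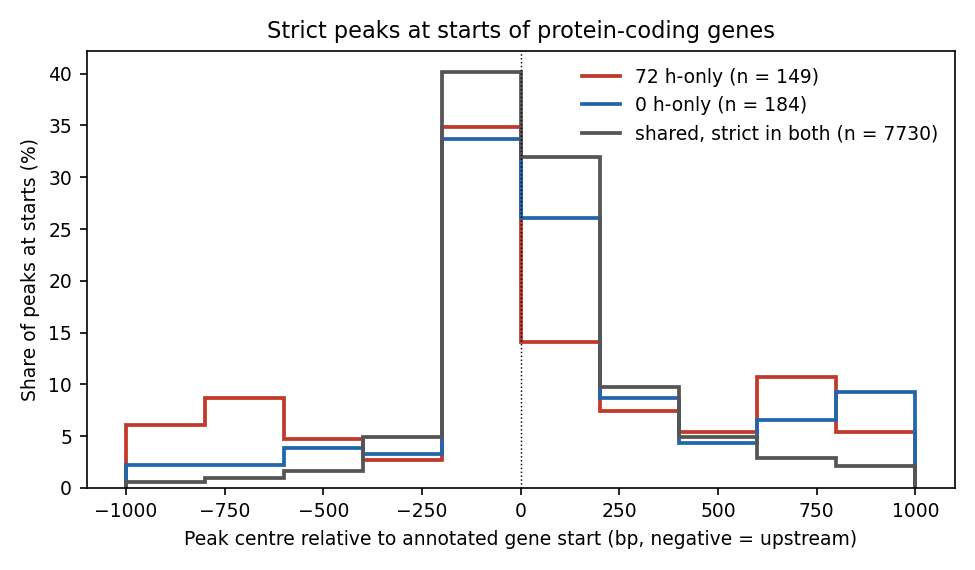
Share of strict peaks at gene starts (y axis, %) by the distance of the peak centre from the annotated start (x axis, bp, negative upstream), for peaks found only at 72 h (149), only at 0 h (184) and strict in both libraries (7730). The 72 h-only peaks have fewer centres just downstream of the start, and 53.0% within 300 bp of it against 81.4% of the shared strict peaks.

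Starts under 72 h-only peaks were CpG-poor. In 73 cases a coding start of the promoter table lay within 300 bp of the centre of a 72 h-only peak, that is, inside the peak. This start can differ from the outer edge of the gene in RefSeq, to which the distances above refer. At Ilvbl and Ugp2, which are among the 73, that edge was 667 and 679 bp from the centre. The ratio of observed to expected CpG in the 300 bases had a median of 0.285 (quartiles 0.188 and 0.511) at these promoters, against 0.686 at 134 promoters under 0 h-only peaks and 0.815 at 6405 under peaks strict in both libraries. With a ratio under 0.6 taken as CpG-poor, 60 of the 73 were CpG-poor (82.2%, 71.5 to 90.2), beside 35.8% (27.7 to 44.6) under 0 h-only peaks and 16.0% (15.1 to 16.9) under shared strict peaks. Of all 21045 coding promoters of the table, 51.9% were CpG-poor, so the 72 h-only set lay above this background and the shared set below it. Promoters under peaks strict at 72 h and weak at 0 h lay between, at 51.2% (44.2 to 58.2). The median GC content was 50.3% under 72 h-only peaks and 62.3% under 0 h-only peaks. The promoter sequence played no part in choosing the peaks.

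**Figure D2:**
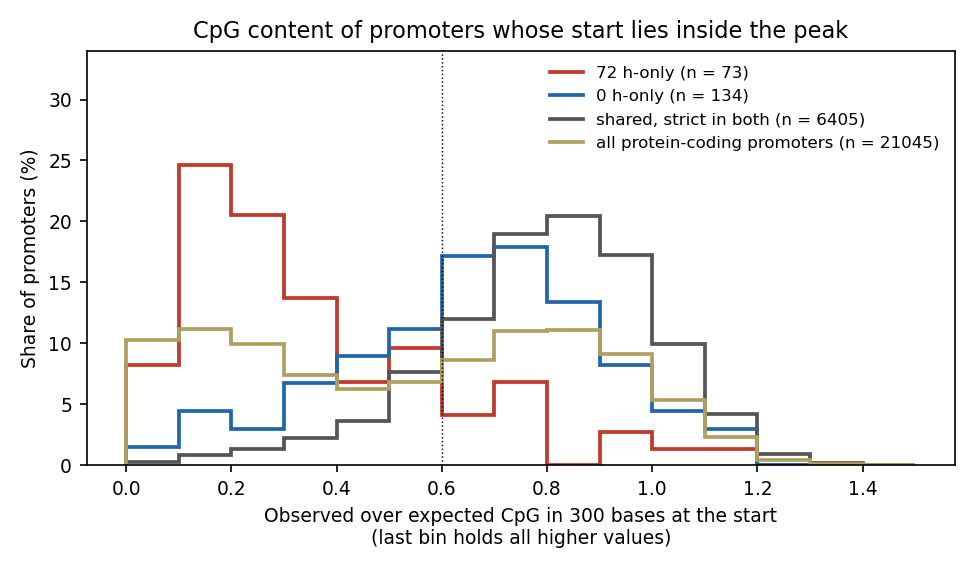
Distribution of the observed over expected CpG ratio (x axis) of promoters whose start lies inside a peak, as a share of each set (y axis, %), for 72 h-only (73), 0 h-only (134) and shared strict peaks (6405) and for all coding promoters (21045). The dotted line marks 0.6; most 72 h-only promoters lie left of it, with a median of 0.285.

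The 13 CpG-dense starts under 72 h-only peaks belonged to genes such as Sdf4 (1.11), Ilvbl (0.790), an enzyme of fatty acid metabolism, Ube2r2 (0.785), a ubiquitin-conjugating enzyme, Ugp2 (0.762), which makes UDP-glucose, and Acot12 (0.635), a liver and gut acyl-CoA thioesterase. Of the 13, 8 had a 0 h peak within 1 kb. The 0 h peak was 34 bp away at Ube2r2, 99 bp at Ilvbl, 100 bp at Ugp2 and 190 bp at Sdf4. At Acot12 the nearest was 65.2 kb away. Where a 0 h peak lay within 1 kb, 8 of 16 starts were CpG-poor (50%, 24.7 to 75.3), and where none did, 52 of 57 (91.2%, 80.7 to 97.1). Sdf4, Ilvbl, Ube2r2 and Ugp2 were named after their values were seen.

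TATA words were more frequent, and GC boxes less frequent, at these starts than at those under 0 h-only or shared strict peaks. TATAAA was present in 20 of the 73 promoters (27.4%, 17.6 to 39.1), against 5.22% (2.13 to 10.5) under 0 h-only peaks, 5.87% under shared strict peaks and 12.7% of all coding promoters. In 6 of the 73 it began 20 to 40 bases before the start on the gene's strand, where a TATA box acts, namely at Bco1, Cyp2c55, Gm10499, Iyd, Krt20 and Krtap24-1 (8.22%, 3.08 to 17.0), beside 2.56% of all coding promoters. GGGCGG, the GC box bound by Sp and Klf factors, was present in 14 (19.2%, 10.9 to 30.1), against 74.6% under 0 h-only peaks and 73.6% under shared strict peaks. Among CpG-poor promoters alone, TATAAA was in 33.3% (21.7 to 46.7) of the 60 at 72 h only, 6.25% (1.31 to 17.2) of the 48 at 0 h only, 8.61% of the shared strict set and 19.2% of all such promoters. For the GC box these shares were 8.33% (2.76 to 18.4), 62.5% (47.4 to 76.0), 54.5% and 21.1%. Promoters under peaks weak at 0 h were nearer to the 72 h-only ones. TATAAA was in 13.4% of them (9.09 to 18.8) and in 16.8% of their CpG-poor ones (10.3 to 25.3), and both intervals overlap those of the 72 h-only promoters. Their GC box share was 42.6% (35.8 to 49.6), above the 72 h-only interval, but among CpG-poor promoters it was 26.2% (18.1 to 35.6), an interval that overlaps the 72 h-only one.

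Words of intestinal regulators were present at somewhat higher shares than in all promoters. A Gata word was present in 22 of 73 (30.1%, 19.9 to 42.0; 15.8% of all coding promoters), a Cdx word in 13 (17.8%, 9.84 to 28.5; 5.90%) and an Hnf1 word in 10 (13.7%, 6.77 to 23.8; 6.25%). Gata, Cdx and Hnf1 proteins are transcription factors that maintain intestinal identity. Within CpG-poor promoters, the Gata share of 35% (23.1 to 48.4) and the Hnf1 share of 16.7% (8.29 to 28.5) had intervals that reached the shares of all CpG-poor promoters, 24.2% and 9.03%, while the Cdx share of 20% (10.8 to 32.3) lay above 8.25%. The 9-letter Hnf4 word was in 5 promoters (6.85%, 2.26 to 15.3; 0.813% of all), those of Alpi, Btnl2, Cyp2c65, H2-T3 and Rbp2, and in none of the 134 under 0 h-only peaks (up to 2.72% by the interval, which overlaps that of the 72 h-only promoters). In promoters under peaks weak at 0 h, the Cdx share was 7.18% (4.07 to 11.6) and the Hnf1 share 9.09% (5.56 to 13.8). The Hnf4 share there was 2.87% (1.06 to 6.14). These intervals overlap those of the 72 h-only promoters. The Gata share there, 13.4% (9.09 to 18.8), lay below the 72 h-only interval. Among CpG-poor promoters, the intervals of the 2 sets overlap for Gata, Cdx, Hnf1 and Hnf4 words alike. AP-1 words were in 15.1% (7.77 to 25.4; 7.04% of all) of the 73 and the Smad words in 12.3% (5.80 to 22.1; 15.7% of all). These are 12 groups of words that were searched in the same 73 promoters, with no correction for their number, and no listed word lay inside another.

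A share of the peaks bordered on chromatin already called open at 0 h. Of the 265 peaks, 83 (31.3%, 25.8 to 37.3) had a 0 h peak within 1 kb, and for 78 of those the neighbouring 0 h peak was itself overlapped by a 72 h peak. In 26 cases the 0 h peak was within 100 bp, and at Pdp1 and Dennd5b the peaks abutted. At the other extreme, 94 peaks (35.5%, 29.7 to 41.6) had no 0 h peak within 10 kb, and the farthest was 463 kb away, at Olfr1532-ps1. Bordering was also seen among the 267 peaks found only at 0 h, where 62 (23.2%) had a 72 h peak within 1 kb. The median distance from 72 h-only peaks to a 0 h peak was 4.61 kb, and the median from 0 h-only peaks to a 72 h peak was 10.0 kb. Bordering 72 h-only peaks were mostly at starts, 53 of 61 with a strand (86.9%, 75.8 to 94.2), whereas of the other 72 h-only peaks 96 of 154 were (62.3%, 54.2 to 70.0).

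**Figure D3:**
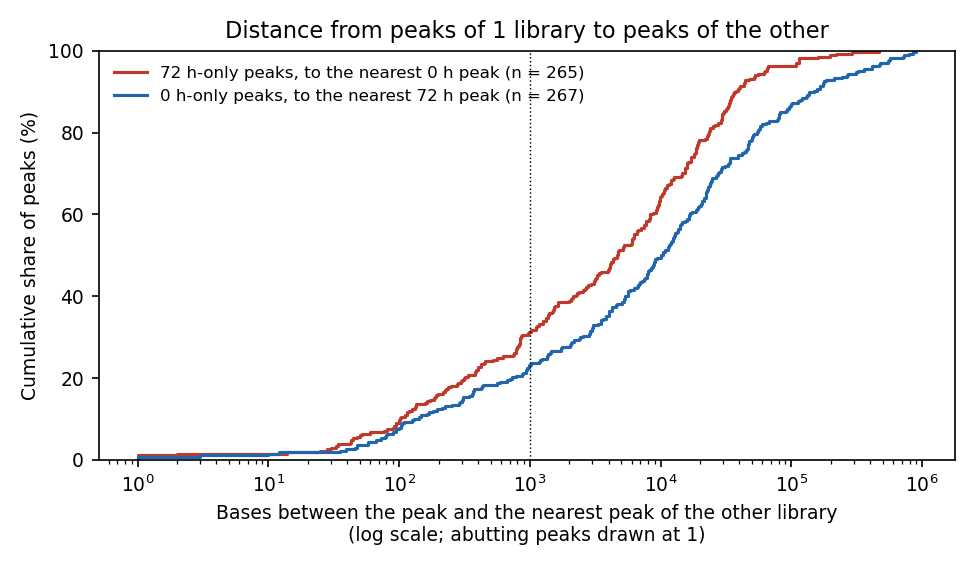
Cumulative share of peaks (y axis, %) by the number of bases to the nearest 1e-05 peak of the other library (x axis, log scale), for 265 peaks found only at 72 h and 267 found only at 0 h. The dotted line marks 1 kb, within which 31.3% of the 72 h-only peaks had a 0 h neighbour and 23.2% of the 0 h-only peaks a 72 h neighbour.

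Of the 149 starts, taken as the outer edge of the gene, 79 lay under the 72 h-only peak itself and 31 (20.8%, 14.6 to 28.2) under a 0 h peak. Another 72 h peak, but not the 72 h-only one, covered 38, and some starts are in both the 31 and the 38. Of 184 starts at 0 h-only peaks, 14 (7.61%, 4.22 to 12.4) lay under a 72 h peak. Of the 149, 30 lay under no peak of either library. At 144 of the 258 nearest genes, neither end had a 0 h peak within 1 kb, and 52 genes had none from 10 kb before to 10 kb after the gene. For 179 of the 258 genes, the peak at the gene's end was the only strict 72 h-only peak within 10 kb, and 79 genes had 2 or more.

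Some of these peaks lay at genes of absorption and metabolism. Of the 10046 protein-coding genes with a strict 72 h peak within 1 kb of an end, 280 (2.79%) had a 72 h-only one, which is the background for the lists that follow. In the list of brush border and digestive enzyme genes 5 of 21 did (23.8%, 8.22 to 47.2), of lipid and sterol handling genes 5 of 38 (13.2%, 4.41 to 28.1), of nutrient and ion transport genes 8 of 32 (25%, 11.5 to 43.4) and of xenobiotic and retinoid genes 11 of 34 (32.4%, 17.4 to 50.5). Of genes with a strict 0 h peak at an end, none of 13, 32, 23 and 20 in these 4 lists had a 0 h-only one, with upper limits of 24.7%, 10.9%, 14.8% and 16.8% that all include the 2.70% of all such genes. The lists were chosen with results of these data known, so their counts are a description. The 19 lists together held 36 of the 280 genes with a 72 h-only peak at an end. It lay at the start in 28 of the 32 with a known strand, beside 69.3% of all 72 h-only peaks with a strand. At 31 of the 36 there was no 0 h peak at either end. Of all 280 genes, 151 had no 0 h peak at either end, an absence that the rule itself favoured. Among the 36 listed genes, 24 had a sequence and their start under the peak, and 23 of these were CpG-poor. Over all 72 h-only peaks, 60 of 73 such starts were (82.2%).

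**Figure D4:**
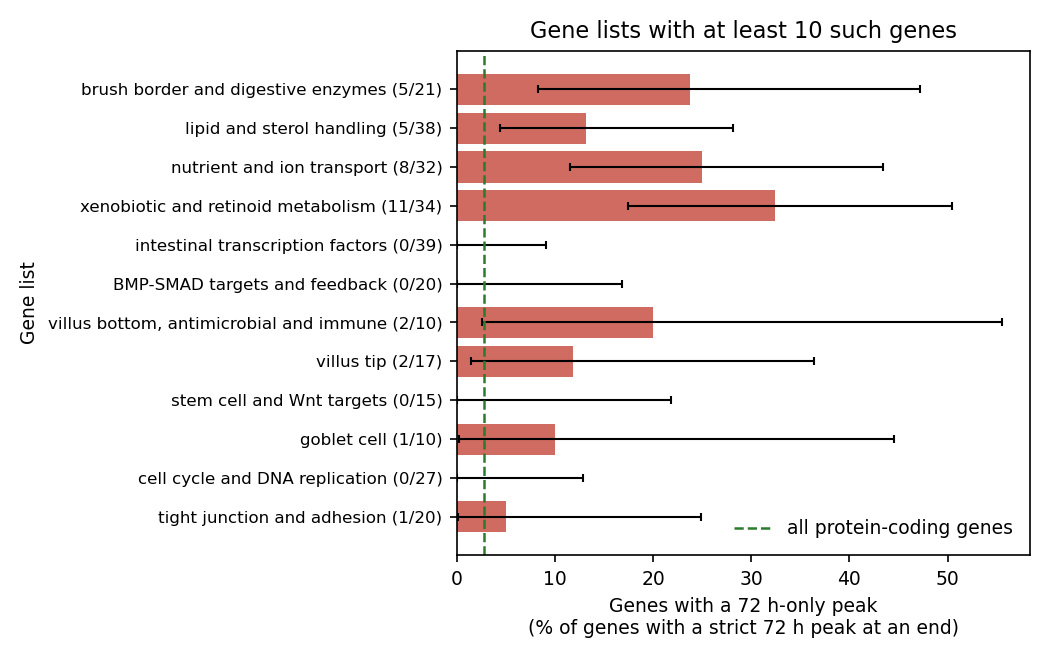
Share of genes with a 72 h-only strict peak at an end among genes with a strict 72 h peak there (x axis, %; counts beside each name on the y axis), for lists with at least 10 such genes; bars are shares, lines exact 95% intervals for counting error. The dashed line is the 2.79% of all protein-coding genes, and 4 lists have no such gene.

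The 5 genes of the brush border and digestive enzyme list, not all of them enzymes, had their peaks on the start side. Alpi, which removes phosphate groups from lipids and bacterial products at the enterocyte surface, had 2 such peaks, at chr1:87101267-87101867 across the start and chr1:87102031-87102631 centred 725 bp upstream. Within 10 kb of Alpi the 72 h list held 5 peaks and the 0 h list none, and the nearest 0 h peak was 32.6 kb away. The Sis peak (chr3:72967536-72968136) was centred 27 bp from the start. Around Sis, which splits sucrose and isomaltose, the 72 h library had 2 peaks within 10 kb and the 0 h library 0. Tm4sf4 likewise had 2 and 0, and its peak lay at chr3:57424961-57425561. Krt20 (chr11:99437827-99438427) had 5 peaks at 72 h and 2 at 0 h, with a 0 h peak 0.744 kb from the start peak. At Eps8l3, which encodes a relative of an actin-binding protein of microvilli, the peak was 882 bp from the start, 0.443 kb from a 0 h peak, with 10 peaks at 72 h and 7 at 0 h around the gene.

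Among lipid genes, the peaks lay at starts of genes for sterol and fatty acid traffic. Npc1l1, through which cholesterol enters the enterocyte, had its peak at chr11:6229972-6230572, 27 bp from the start, with 3 peaks at 72 h and none at 0 h. Abcg5, a subunit of the transporter that returns sterols to the lumen, had its peak at chr17:84682664-84683264, 47 bp from the start, with 4 peaks at 72 h and 3 at 0 h. These are the uptake and the return of sterols at the apical membrane. Fabp2, the intestinal fatty acid binding protein, had a peak 349 bp from its start (chr3:122895121-122895721), with 4 peaks at 72 h and 3 weak ones at 0 h. Acot12 had 3 peaks at 72 h, each strict and 72 h-only, and none at 0 h. A single peak at chr7:19677763-19678363 lay at both Apoc2, 122 bp from its start, and the neighbouring apolipoprotein gene Apoc4, 21 bp from its other end.

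Transporters had 8 genes with such a peak, over bile acids, peptides, amino acids and metals. The bile acid system was covered at 3 points: Slc10a2, the apical bile acid importer, 69 bp from its start (chr8:5105056-5105656), Slc51a, 126 bp (chr16:32487453-32488053), and Slc51b, 436 bp (chr9:65422909-65423509), the last 2 being the subunits of the basolateral exporter. Slc51a had 1 peak at 72 h but none at 0 h within 10 kb, Slc51b 4 and 1, and Slc10a2 2 and 1. Slc15a1, the apical peptide transporter, had its peak 65 bp from the start (chr14:121505019-121505619), with 8 peaks at 72 h and 2 at 0 h, the largest difference in number among the 36 listed genes. Slc7a9, a cystine transporter subunit, had a peak 331 bp from the start and a 0 h peak 0.217 kb away. Slc5a12, a monocarboxylate transporter, had 1 peak at 72 h and the nearest 0 h peak 291 kb away, and Slc11a2, the apical iron importer, had a peak 0.836 kb from a 0 h peak. The strand of Slc5a12 and Slc11a2 was not assigned. Slc30a10, a manganese exporter, was the exception, with its peak at the other end of the gene, 842 bp from it.

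The list of xenobiotic and retinoid metabolism had 11 genes, the largest number of any list. Cytochromes P450, which oxidise drugs, steroids and fatty acids, made up 6 of them. Cyp2c55 (chr19:39006638-39007238), Cyp2c65 (chr19:39060670-39061270) and Cyp2c66 (chr19:39113526-39114126) are neighbours on chromosome 19, and their peaks were centred 2, 36 and 72 bp from the starts. Within 10 kb, 3 peaks at 72 h lay around Cyp2c65 and 4 around Cyp2c66, with 0 at 0 h for both, while Cyp2c55 had 3 and 1, the latter 0.977 kb from the peak. The Cyp2c genes are close relatives, and how reads that match several copies were treated is not given in the sources used here. Cyp2b10 had 4 peaks at 72 h against 0 at 0 h, and Cyp4f14 had 6 and 3. Over the whole Cyp family, 8 of 28 genes with a strict 72 h peak at an end had a 72 h-only one (28.6%), Cyp2d34 and Cyp4a12a being the members outside the list. None of all 99 Cyp genes had a 0 h-only strict peak at an end, but how many had any strict 0 h peak there was not counted. Ugt2a3, a glucuronosyltransferase, had 1 peak at 72 h but none at 0 h.

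Vitamin A handling was present at 3 starts. Rbp2, the retinol-binding protein of enterocytes, had its peak at chr9:98490059-98490659, 178 bp from the start, with 4 peaks at 72 h and 3 weak ones at 0 h. Bco1, which cleaves beta-carotene to retinal, had its peak 17 bp from the start (chr8:117095568-117096168), with 5 peaks at 72 h and 2 at 0 h. Bco2, which cleaves carotenoids off centre, shared its peak at chr9:50555062-50555662 with Il18, whose start is 662 bp from the peak centre. Il18 encodes an epithelial cytokine and had 4 peaks at 72 h but none at 0 h, while Bco2 had 3 and 1. Akr1b7, an aldo-keto reductase, had 3 and 1, and Cyp2d22 likewise had 3 and 1.

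The remaining lists had few genes. The intervals of villus-bottom (2.52 to 55.6%), villus-tip (1.46 to 36.4%), goblet (0.253 to 44.5%) and adhesion genes (0.127 to 24.9%) include the background of 2.79%. That of the enteroendocrine genes, 5.27 to 85.3%, lies above it but rests on 5 genes. Of villus-bottom and immune genes 2 of 10 had a 72 h-only peak at an end, Il18 and Nlrp6 (an inflammasome sensor), whose peak was 6 bp from the start. Of villus-tip genes 2 of 17 did, Krt20 and Xdh. At Xdh, which encodes xanthine dehydrogenase, a 0 h peak lay 0.030 kb from it. The goblet cell list had 1 of 10, Agr2, a protein disulfide isomerase needed for mucin. The enteroendocrine list had 2 of 5, the hormone genes Gip and Sct. In all 3 cases the peak lay at the other end of the gene. The enteroendocrine list also had 2 of 4 genes with a 0 h-only strict peak at an end, Isl1 and Scg5. For Agr2, Gip and Sct the nearest 0 h peaks were 2.26, 3.48 and 0.785 kb away, in that order. The tight junction and adhesion list had 1 of 20, Cdhr1, a protocadherin-related gene with 1 peak at 72 h and none at 0 h, and also 1 of 18 genes with a 0 h-only one, Epcam, which encodes an epithelial adhesion molecule.

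Several lists had no such peak. None of 39 intestinal transcription factor genes (up to 9.03% by the interval), none of 20 BMP-SMAD target and feedback genes (up to 16.8%), none of 15 stem cell and Wnt target genes (up to 21.8%) and none of 27 cell cycle genes (up to 12.8%) with a strict 72 h peak at an end had a 72 h-only one. The intervals of all 4 lists include the background of 2.79%. Foxa2 and Grhl3 among the transcription factors, Msx2 among the BMP targets and Ascl2 and Lrig1 among the stem cell genes had a 0 h-only strict peak at an end. Of genes for fetal-like and injury states, tuft cells, Paneth cells, fibroblasts, immune cells and endothelium, no member had a 72 h-only peak at an end. Few of these had any strict 72 h peak there, from none of the Paneth and endothelial genes to 6 of the fetal-like genes.

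**Figure D5:**
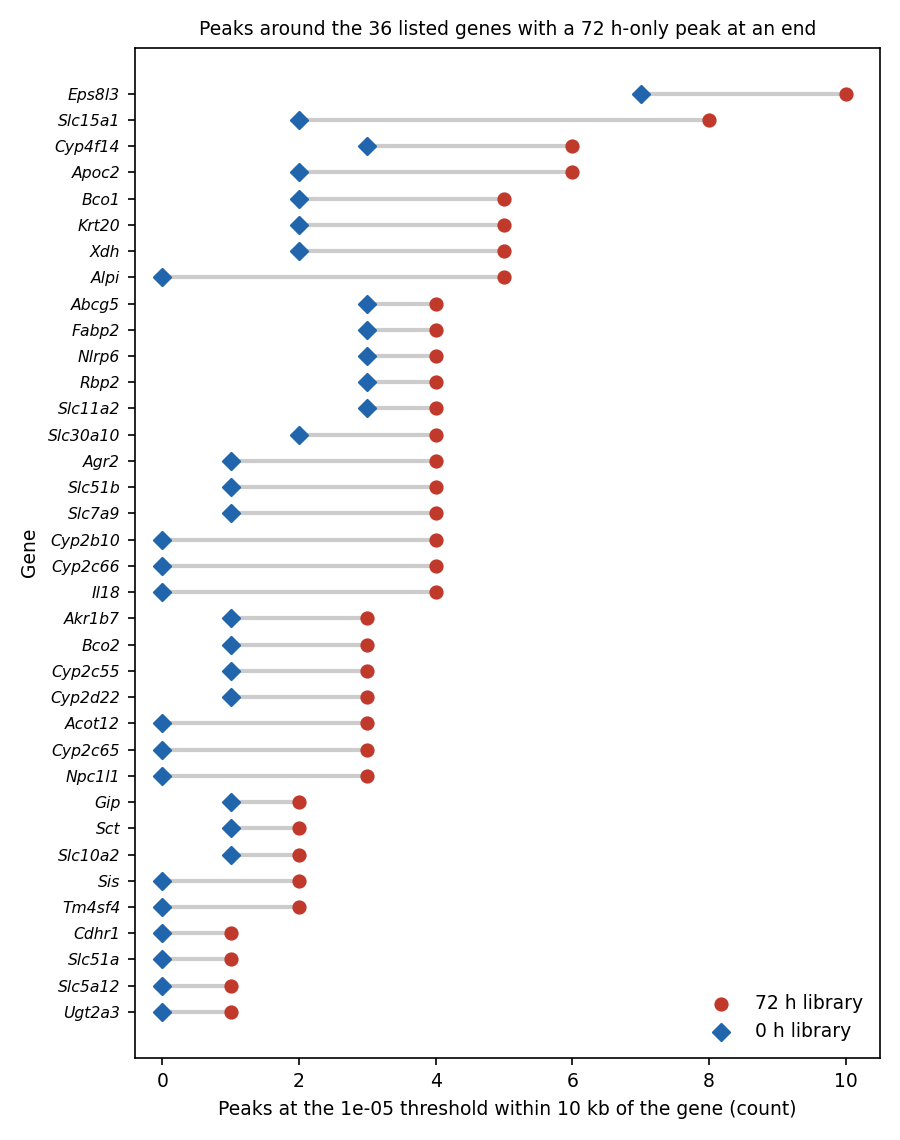
Number of 1e-05 peaks from 10 kb before to 10 kb after each of the 36 listed genes with a 72 h-only peak at an end (x axis, count; y axis, gene), in the 72 h library (circles) and the 0 h library (diamonds). All 36 have more peaks at 72 h, and 13 have none at 0 h. Each has at least 1 peak that the rule chose, and the 72 h list is larger over the genome (41343 against 35857). The excess is thus a description and not a trait of the listed genes. Of all 280 genes with a 72 h-only peak at an end, 55 have none at 0 h.

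By gene symbol, 12 of 183 solute carrier (Slc) genes with a strict 72 h peak at an end had a 72 h-only one (6.56%), among them Slc10a2, Slc11a2, Slc15a1 and Slc2a7. A 0 h-only strict peak lay at an end of 3 of all 375 Slc genes, and how many had any strict 0 h peak there was not counted. The Abc transporters had 3 of 26 (Abca5, Abcb8 and Abcg5). The Zfp zinc finger genes had 7 of 250 (2.80%), among them Zfp239, Zfp36l2, Zfp383 and Zfp65, a share at the background of 2.79%.

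Of the 52 nearest genes with no 0 h peak within 10 kb, 11 had at least 3 peaks at 72 h. Alpi had 5 peaks at 72 h. Cyp2b10, Cyp2c66, Nat8f5 (an N-acetyltransferase-like gene) and Tinag (a basement membrane antigen first named in kidney) had 4 each. Acot12, Ces1d (a carboxylesterase), Cyp2c65, Iyd (which recovers iodide from iodotyrosines), Npc1l1 and Plekhs1 had 3 each, the peak of Plekhs1 lying at its other end. Il18, whose peak lay nearer to Bco2, had 4 peaks at 72 h and 0 at 0 h. At Nat8f5 and at Tinag, 2 peaks in the set lay at the start, and the nearest 0 h peaks were 29.6 and 114 kb away. Other genes with 2 such peaks at an end were Apoc4, Dhcr7, Fis1, Gpt and Olfr653. Dhcr7, the last enzyme of cholesterol synthesis, had both at its other end, with 6 peaks at 72 h and 4 at 0 h around the gene, and Gpt, alanine aminotransferase, had 7 and 4.

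Peaks found only at 72 h were a smaller share at gene ends than over the genome. Of the 10501 strict 72 h peaks at gene ends, 265 were 72 h-only (2.52%), against 18.1% of all strict 72 h peaks on these chromosomes. At gene ends 2.58% of the strict 0 h peaks were 0 h-only, 267 of 10356. The ratio of 72 h-only to 0 h-only peaks was thus 0.993 here. It depended on where and how strictly peaks were counted: it was 0.716 within 500 bp of an end and 1.40 within 2 kb, and 0.677 when 1e-05 peaks were used in place of strict ones.

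Just inside 1 kb lay peaks at Dio1 (997 bp from a gene end), Cst9 (994 bp) and Clec9a (981 bp), and just outside lay peaks at Pak6 (1003 bp), 2610507B11Rik (1011 bp) and Sorbs3 (1013 bp). Just across the overlap rule were strict 72 h peaks at Calml4, Mical2 and Pip4p1, which shared 1, 3 and 7 bp with a 0 h peak. At Fam136a a peak stayed in the set with 1 bp between it and a 0 h peak.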

How the data were processed

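ATAC-seq was carried out on 4 organoid libraries, and peak lists of the 0 h and 72 h libraries were used. The submitters' processing notes name, without roles, MACS2 2.2.7.1, deepTools 3.5.4, bedtools 2.26.0, Picard 2.18.27, cutadapt 1.9.1, SAMtools 1.3.1 and Bowtie2 2.4.1, and the mm10 build. Settings, any Tn5 shift and how duplicates or multiply mapped reads were handled are not stated in the labels or files. The deposited lists give chromosome, start, end and name, with no score or count, and peak names show that calls were made per library. Every peak in the set spans 601 bp, a summit with 300 bp on each side.

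Genes came from the RefSeq table of GRCm38.p6 (21631 protein-coding genes on these chromosomes). Strand and promoter sequence came from the RefSeq promoter table, which held 17274 of them. A peak at a gene start or other end was read from the nearest gene end. For these distances the start is the outer edge of the gene's RefSeq range, and the start in the promoter table can lie elsewhere. The CpG ratio is the number of CG pairs times the length over the product of C and G numbers. Overlap, distance and nearest-end steps were tested on simulated intervals. Coordinates are 1-based. Genes were named if they were in a list, had 2 or more peaks in the set, were among the 10 with the most 72 h peaks and no 0 h peak within 10 kb, belonged to a symbol family with at least 3 such genes, or lay nearest the 1 kb limit. Ties with the tenth gene are also named. Genes at the extremes of distance or overlap (Pdp1, Dennd5b, Fam136a, Olfr1532-ps1, Calml4, Mical2, Pip4p1), genes whose promoter held a rare word (Btnl2, H2-T3, Gm10499, Krtap24-1), CpG-dense starts, 0 h-only list genes and those in the last section were named after their values were seen. Of 552 list genes 5 had no matching symbol. The set and the lists were chosen with earlier results of these data known. Alternatives varied the overlap rule, thresholds, window, gene types and CpG limit. Intervals were computed with SciPy 1.17.1, tables with pandas 2.3.3 on Python 3.11.15 with numpy 2.4.6, and plots with matplotlib 3.10.9.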

Additional observations from a re-analysis of the deposited data

How the results depend on the processing

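With 1 library per time point, nothing measures the spread between organoid cultures, and with depth unknown a site that was closed at 0 h cannot be told apart from one that was not called. No paired analysis was possible because each group holds 1 library. The number of 72 h-only peaks at gene ends stayed within 1.5 times 265 with a 1 kb gap to any 0 h peak (182), with overlapping peaks merged (260) and with the authors' enriched lists (265). The enriched list for 72 h holds every peak of the set, so the last count is no separate check. The number was 777 when only strict 0 h peaks counted, 600 when 300 bp of overlap was required, 879 with the 72 h list at 1e-05, 141 within 500 bp, 483 within 2 kb and 477 with all genes of the table. As a share of the peaks at gene ends, 2.52% as reported, the gap gave 1.73%, and the same 6 settings gave 7.40%, 5.71%, 6.32%, 1.53%, 4.10% and 4.03%. The ratio to 0 h-only peaks, 0.993 as reported, was 1.24 with 300 bp of overlap, 0.677 at 1e-05, 0.716 within 500 bp, 1.40 within 2 kb and 1.26 with all genes.

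The share of peaks at the start, 69.3%, was 62.3% with the 1 kb gap, 77.6% against strict 0 h peaks and 78.5% within 500 bp. The CpG-poor share, 82.2%, was 91.2% with the gap, 59.2% against strict 0 h peaks and 67.1% at a limit of 0.4. At that limit the share was 15.7% under 0 h-only and 4.73% under shared strict peaks, and at 0.75 the 3 shares were 89.0%, 61.9% and 36.9%. The order of the 3 sets was the same at all 3 limits. The cause of these shifts was not tested.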

Other observations

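The genes in this section were chosen after their values were seen. Outside the lists, several metabolic genes had a 72 h-only peak near the start. Pck1, the first committed enzyme of gluconeogenesis, had one 323 bp from its start at chr2:173152450-173153050, 6.09 kb from the nearest 0 h peak, with 3 peaks at 72 h and 2 at 0 h within 10 kb. Genes of fatty acid oxidation included Eci3, a peroxisomal isomerase, with its peak 31 bp from the start and 2 peaks at 72 h against none at 0 h. Ehhadh and Hadh, the peroxisomal and mitochondrial hydroxyacyl-CoA dehydrogenases, had a peak 946 and 723 bp from the start, in both cases bordering a 0 h peak, 0.313 and 0.094 kb away. Conjugating enzymes outside the list included Sult1d1, a sulfotransferase, with 2 peaks at 72 h and none at 0 h, and Gsta2, a glutathione transferase, with 2 and 1. Muc3, a membrane mucin of the brush border, had a peak 160 bp from its start, with 7 peaks around it in each library. Prap1, a secreted protein of the small intestine, had one 67 bp from its start, with 3 and 2.

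Signalling genes were also present. Tgfbr2, the type II receptor for TGF-beta, and Btc, an EGF family ligand, had a 72 h-only peak 583 and 549 bp from the start, 0.095 and 0.014 kb from a 0 h peak. Wnt6 had one 25 bp from the outer edge of the gene on its start side, with 2 peaks at 72 h and 3 at 0 h. Notch1 had one 592 bp from its other end, with 6 and 5. Of the core clock genes, Arntl had a peak 260 bp from the same kind of edge, 10.3 kb from any 0 h peak. Clock had one 448 bp from its start, 0.627 kb from a 0 h peak. No coding start of the promoter table lay inside the Wnt6 peak or the Arntl peak. At Arntl the 0 h library held more peaks within 10 kb than the 72 h library, 11 against 8.

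In 5 genes, Cep95, Dach1, Ddx5, Ilvbl and Pycard, a 72 h-only and a 0 h-only strict peak both lay at the gene's ends. Cep95 and Ddx5 share the 72 h-only peak, which lies near both starts. At Pycard, the adaptor of inflammasomes, each library held 1 peak within 10 kb. Of the 258 nearest genes, 16 had a 0 h-only strict peak within 10 kb. None of the 36 listed genes did, but with so few genes this says little beside that share. Apoc2 and Il18 are among the 36 but are not nearest genes.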
